A study of Mus musculus with 24 samples.

Results

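The 6 libraries described here compare the liver cells of mice sampled on postoperative day (POD) 1 after a sham laparotomy with those sampled on POD4 after the same operation. They were taken by their labels, 3 libraries of sham POD1 and 3 of sham POD4, from 24 libraries in the study. The study set 70% hepatectomy against a sham operation, in which the abdomen was opened along the midline and no liver was removed, on 4 days with 3 libraries per group. All mice were wild-type BALB/C males operated on at 8 weeks of age. Cells positive for CD11b and Ly6G were taken from the non-parenchymal fraction of the digested liver with magnetic beads, and polyadenylated RNA was sequenced. The study calls these cells granulocytic myeloid-derived suppressor cells (G-MDSCs). Nothing in the labels says whether the replicates of a group came from separate animals, so each p-value measures only the spread between libraries of the study. The comparison asks what fades or appears in this fraction between the first and the fourth day when the operation is a laparotomy alone.

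G-MDSCs are cells of the neutrophil lineage that are known to restrain T cells, through arginase, nitric oxide and checkpoint ligands among other means. Opening the abdomen is itself an injury: it calls neutrophils out of the bone marrow, and they carry granule proteins made during their maturation and release chemokines and cytokines when activated. The liver that they enter holds sinusoidal endothelium, resident macrophages called Kupffer cells, and stellate cells, which store retinoids and make collagen and other matrix when activated. Transcripts of all of these cells were present in the bead-selected fraction.

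The 6 libraries held between 10390216 and 14342872 counted reads. The mean log2(CPM + 1) over 20 markers of sinusoidal endothelium, called the endothelial score here, stood at 5.72, 7.83 and 10.89 in replicates 1, 2 and 3 of POD1 and at 10.61, 5.54 and 6.17 in those of POD4. Each day therefore held 2 endothelium-poor libraries and 1 endothelium-rich library, replicate 3 of POD1 and replicate 1 of POD4. Stab2, a scavenger receptor of this endothelium, was at 2812 and 2232 CPM in the rich pair and at 110 to 456 CPM in the other 4. A neutrophil score made in the same way was lowest in the rich pair, at 10.89, 9.78 and 7.75 on POD1 and 8.15, 10.36 and 11.54 on POD4. The neutrophil markers S100a8 and Itgam were present in every library, at 1664 to 20280 CPM and 346 to 2915 CPM of the unscaled total, but the label of a neutrophil-lineage fraction was met to different degrees. In the 4 poor libraries the neutrophil score was above the endothelial score, while in the rich pair it was below it: the summed neutrophil and endothelial markers stood at 12220 and 52370 CPM of the unscaled total in replicate 3 of POD1 and at 15820 and 44560 CPM in replicate 1 of POD4. The markers of the rich pair thus go against the label. The first principal component of the 6 libraries held 76.2% of the variance and followed the endothelial score. Across genes, the endothelium-rich libraries of the 2 days correlated at r = 0.981, above any pair of a poor and a rich library of the same day (0.772 to 0.855). In bulk samples such as these, fewer cells of a type and less RNA per cell cannot be told apart.

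**Figure D1:**
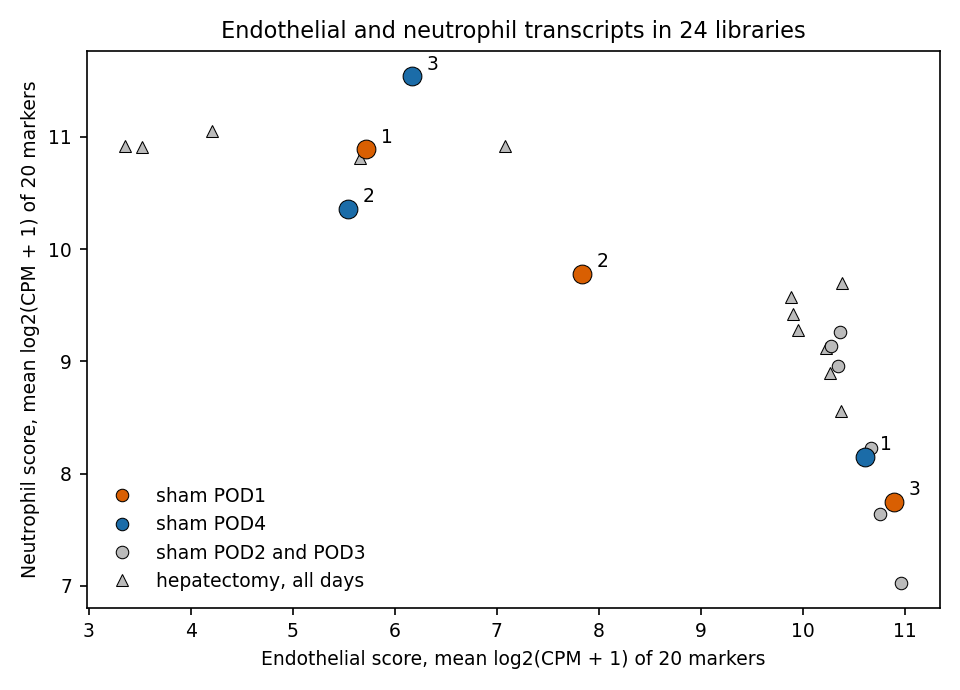
Endothelial score (x axis) and neutrophil score (y axis), each the mean log2(CPM + 1) of 20 markers, in the 24 libraries. The numbered points are replicates of sham POD1 (orange) and sham POD4 (blue), and grey points are the other groups. Both days have 2 libraries on the left, at endothelial scores of 5.54 to 7.83, and 1 on the right, at 10.61 or 10.89.

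No gene passed edgeR's test between the days without a covariate, in a fit of all 24 libraries. Of 14325 genes, 0 (0%) reached an adjusted p of 0.05 in edgeR's quasi-likelihood test, and 688 had an unadjusted p under 0.05, 364 (2.54%) higher and 324 (2.26%) lower at POD4. A fit of the 6 libraries only called 0 of 12446 genes, and 137 had an unadjusted p under 0.05. DESeq2 called 18 genes, 4 higher and 14 lower, and limma voom with quality weights called 5. The values of named genes below are therefore levels and differences, and unless another fit is named they did not pass. 2 kinds of count describe the gene lists, and neither is a test of them. The first is of genes whose 3 libraries of POD4 all lay above or all below the 3 of POD1: 269 genes (1.88%) were higher in this way and 236 (1.65%) lower. The second is of genes ordered the same way within each kind of library, with both poor libraries of POD4 beyond both poor libraries of POD1 and the rich library of POD4 beyond that of POD1 in the same direction: 1079 genes (7.53%) were higher in this way and 1272 (8.88%) lower. Leaving out a library loosens both counts: over all genes, 401 to 1079 were then higher without overlap and 312 to 1414 lower. With a poor library left out, 2200 to 2515 genes were higher within each kind of library and 1792 to 3615 lower. The median log2 fold change of all genes was -0.02, with 6834 positive and 7491 negative differences. Markers of the same cell type can rise and fall together with the share of that cell in a library. Members of a list are therefore not independent of each other. A list's share beside that of all genes shows a common direction and gives no measure of significance. The lists were also chosen with earlier results of these data known.

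The lists differed in where their members lay. Markers of stellate cells and fibroblasts lay lower at POD4, with a median log2 fold change of -1.05. Markers of Kupffer cells lay higher with a median of 1.38, those of plasma cells with 1.44 and genes of the G2 and M phases of cell division with 1.82. Interferon-stimulated genes were split into 34 positive and 34 negative differences.

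**Figure D2:**
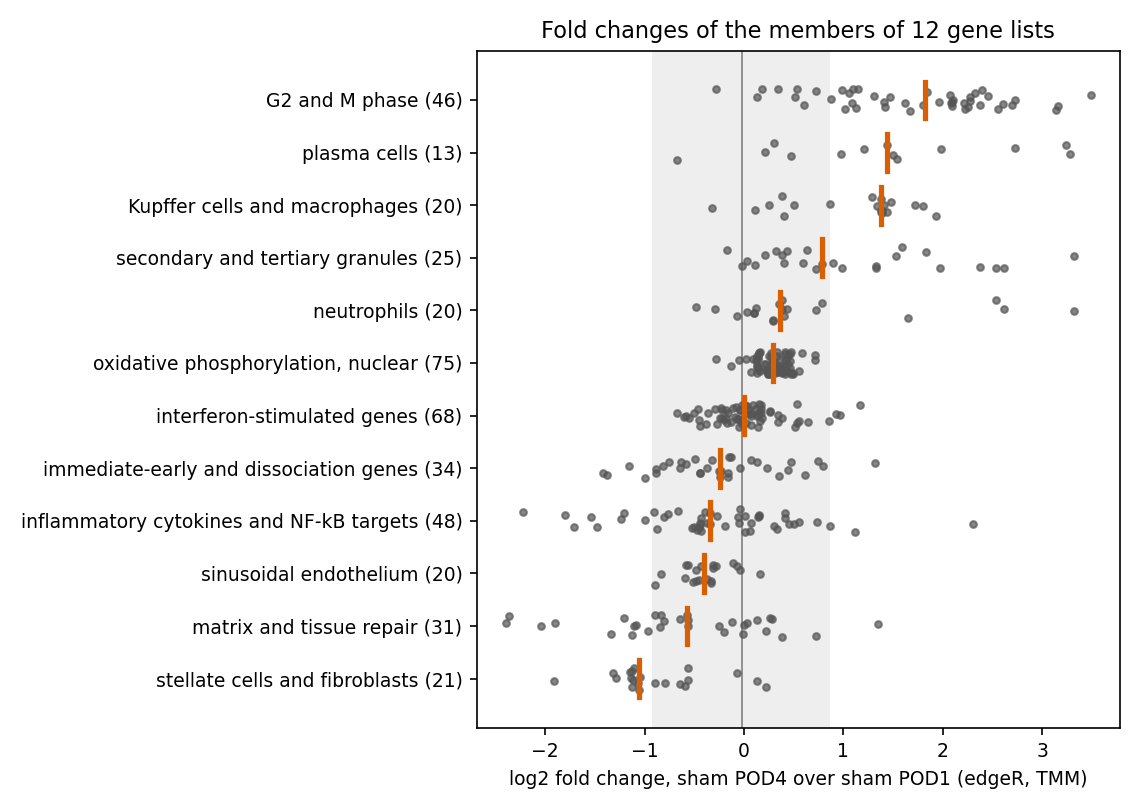
Log2 fold change of sham POD4 over sham POD1 (x axis) for each tested member of 12 gene lists, with the number of members in parentheses. Each grey point is a gene and the orange bar is the list's median, while the grey band spans the 5th to 95th percentiles of all genes, -0.92 to 0.86. The medians run from -1.05 for stellate cells and fibroblasts to 1.82 for the G2 and M phases.

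Genes of matrix and stellate cells were among those with low p-values, with Postn lowest of all and an immunoglobulin segment, Igkv15-103, next. Postn (chromosome 3, 54361109 to 54391037, plus strand, GRCm38) encodes periostin, a matrix protein of injured and healing tissue. Its level was 12.5, 23.1 and 18.6 CPM in replicates 1, 2 and 3 of POD1 and 6.03, 5.02 and 3.45 CPM in those of POD4. The groups did not overlap, and both the poor and the rich libraries were lower at POD4 (log2 -1.90 ± 0.32, adjusted p = 0.155 with edgeR). In DESeq2 the same difference passed (log2 -1.88, adjusted p = 2.26e-05). Dcn (chromosome 10, 97479609 to 97518143, plus strand) encodes decorin, a proteoglycan that binds collagen. Its level was 222, 262 and 262 CPM on POD1 and 156, 66.8 and 82.3 CPM on POD4 (log2 -1.29 ± 0.32, adjusted p = 0.624). Adamts2, the protease that trims the ends of procollagen, stood at 9.32, 6.74 and 7.14 CPM on POD1 and at 2.98, 2.94 and 3.57 CPM on POD4 (log2 -1.29 ± 0.28). Gdf10, a growth factor of the TGF-beta family, stood at 19.3, 21.5 and 22.6 CPM against 8.51, 4.04 and 7.14 CPM (log2 -1.68 ± 0.42). All 3 were separated between the days without overlap, and the highest POD4 library of Dcn was the endothelium-rich one.

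The same order was seen across the stellate cell and fibroblast markers. Of 21 tested members, 14 were lower and 0 higher at POD4 within both kinds of library, against 8.88% and 7.53% of all genes, and 11 were lower without overlap against 1.65%. The median was -1.05, and 14 members had an unadjusted p under 0.05, all lower, against 2.26% of all genes. These included Lrat, the enzyme that esterifies retinol for storage in stellate cells, at 7.86, 13.9 and 15.2 CPM on POD1 and 3.26, 2.20 and 4.40 CPM on POD4. Pdgfrb, the PDGF receptor of stellate cells and pericytes, stood at 8.09, 19.2 and 10.4 CPM against 5.46, 2.69 and 6.90 CPM. Hand2, a transcription factor of quiescent stellate cells, stood at 9.77, 10.1 and 10.7 CPM against 6.95, 2.82 and 3.92 CPM. Lum, Col14a1, Reln, Des, Pdgfra, Ecm1 and Cxcl12 were also lower without overlap, with log2 differences from -1.12 for Cxcl12 and Col14a1 to -0.79 for Ecm1. Rgs5 and Colec11 were lower only within each kind of library, since their rich POD4 libraries, at 59.6 and 19.7 CPM, lay above the lowest POD1 library. Outside the list, Sod3, the extracellular superoxide dismutase, and Mmp2, a gelatinase, were lower without overlap as well, Sod3 at 29.4, 34.6 and 41.0 CPM against 24.7, 10.8 and 12.4 CPM. The 7 members of the list without either order included the collagens Col1a1 and Col3a1 and the contractile genes Acta2 and Tagln, which rise when stellate cells become myofibroblasts.

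The count of separated markers rested on the scaling. The TMM factors were 1.378 and 1.359 in the rich libraries and 0.666 to 0.847 in the poor ones. With the library total alone, 1 of the 21 was lower without overlap, while 14 of 21 were still lower within each kind of library. The summed level of the 21 markers, in CPM of the unscaled total, was 1022, 1740 and 2222 on POD1 and 1538, 685 and 988 on POD4, and it was highest on each day in the rich library.

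**Figure D3:**
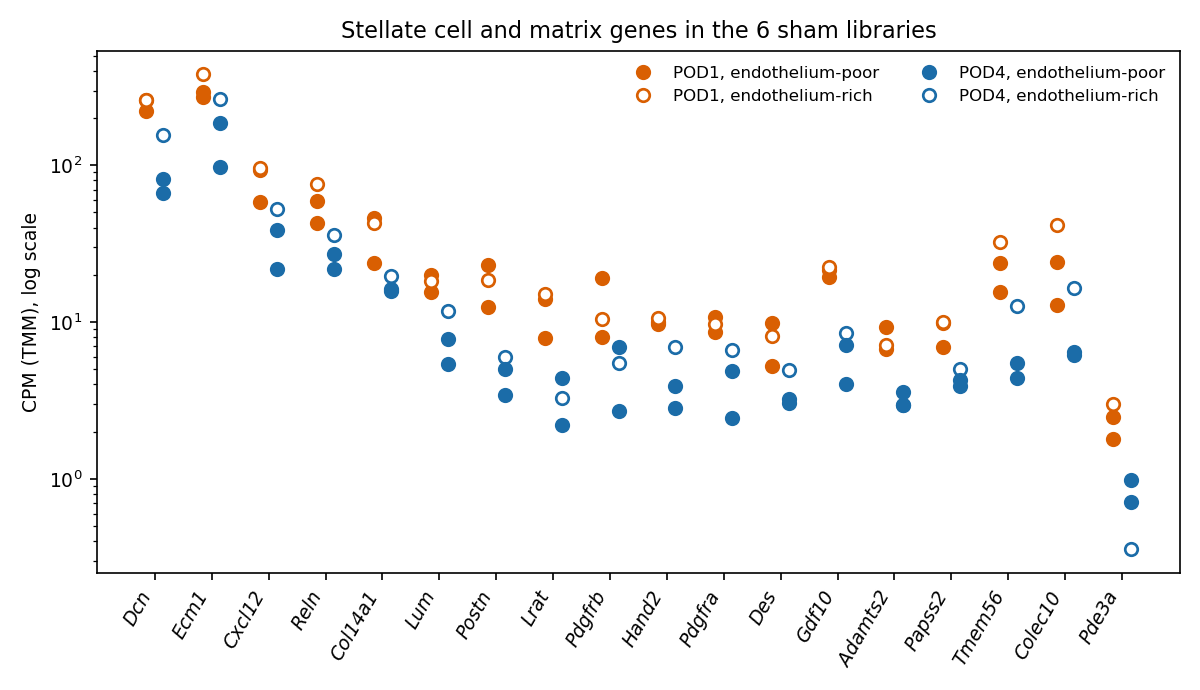
CPM on a log scale for 18 genes of stellate cells and matrix in the 3 libraries of sham POD1 (orange) and sham POD4 (blue). Filled points are endothelium-poor and open points endothelium-rich libraries. For 17 of the genes all blue points lie below all orange ones, and for Colec10 the open blue point, at 16.5 CPM, lies above the lowest orange one, at 12.8 CPM.

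Holding the endothelial score constant in the fit gave the calls of the comparison. With the score as a covariate over 24 libraries, 14 genes (0.0977%) passed in edgeR at an adjusted p of 0.05, of which 12 fell and 2 rose from POD1 to POD4. Of the genes already described, Postn fell (log2 -1.85 ± 0.28, adjusted p = 0.0265) and Adamts2 fell (log2 -1.32 ± 0.24, adjusted p = 0.0456). Colec10, a collectin that binds sugars on microbes, fell as well, from 12.8, 24.2 and 41.5 CPM to 16.5, 6.49 and 6.18 CPM (log2 -1.21 ± 0.22, adjusted p = 0.0456). Its highest level on each day was in the rich library. Papss2, which makes the sulfate donor for proteoglycans, fell from 6.96, 9.88 and 10.03 CPM to 5.03, 4.28 and 3.92 CPM (log2 -0.98 ± 0.18, adjusted p = 0.0456). Tmem56 fell from 15.5, 23.8 and 32.5 CPM to 12.6, 4.41 and 5.47 CPM (log2 -1.59 ± 0.30). Pde3a, a phosphodiesterase that breaks down cyclic AMP, fell at low levels, from a mean of 2.43 to 0.682 CPM.

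A second set of the 14 had its high values in the endothelium-poor libraries. Entpd3, an ectoenzyme that breaks down extracellular ATP, stood at 382 and 255 CPM in the poor POD1 libraries, against 146 and 63.9 CPM in the poor POD4 ones. In the rich libraries it stood at 17.3 CPM on POD1 and 10.1 CPM on POD4, so it was lower on POD4 in both kinds (log2 -2.03 ± 0.36, adjusted p = 0.0456 with the score held constant). Pik3ip1, an inhibitor of PI3 kinase, stood at 22.8, 7.75 and 2.53 CPM on POD1 and at 1.28, 4.65 and 6.07 CPM on POD4 (log2 -1.64 ± 0.27, adjusted p = 0.041). Klhl24, an adaptor of a ubiquitin ligase, fell by 0.95 on the log2 scale. Tg, Rab15 and Gm27252 also fell in this fit, and each had its highest level in a poor library of POD1 and stood at 2.62 CPM or less on POD4. The pair that rose were Vps45, a protein of vesicle fusion, and the immunoglobulin light chain segment Igkv15-103, at 0.674, 0.0923 and 0.405 CPM on POD1 and 1.70, 5.14 and 3.81 CPM on POD4.

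The number of calls with the score held constant depended on single libraries. It was 43 without replicate 1 of POD1, 0 without replicate 2 of POD1, 572 without replicate 3 of POD1, 182 without replicate 1 of POD4, and 0 without replicate 2 or without replicate 3 of POD4. It was also 0 in a fit of the 12 sham libraries and 0 with library size alone, although between 1793 and 2314 genes had an unadjusted p under 0.05 in those 2 fits.

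Sham libraries of the days between, all of them endothelium-rich, placed these genes in a course. Postn stood at 7.09, 10.3 and 10.97 CPM on POD2 and at 5.65, 5.402 and 7.17 CPM on POD3. Among endothelium-rich libraries alone it was thus 18.6 CPM on POD1, 7.09 to 10.97 CPM on POD2, 5.402 to 7.17 CPM on POD3 and 6.03 CPM on POD4, with a single library on the first and last of these days. Dcn stood at 144 to 226 CPM on POD2 and at 117 to 211 CPM on POD3, against 262 CPM in the rich library of POD1 and 156 CPM in that of POD4. Gdf10 stood at 10.3 to 15.5 CPM and 6.47 to 16.9 CPM on the days between, which lay below every POD1 library.

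**Figure D4:**
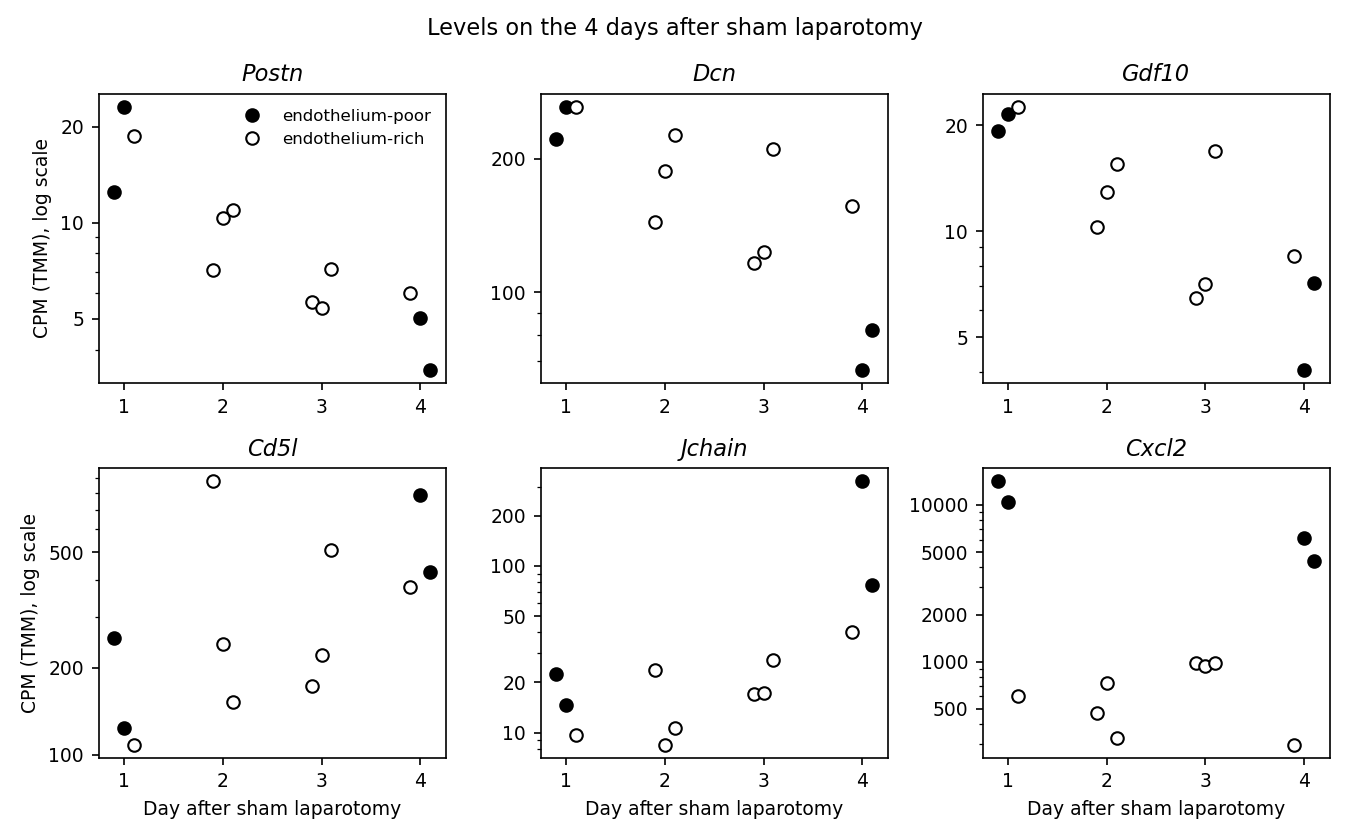
CPM on a log scale for 6 genes in the 3 libraries of each of the 4 days after sham laparotomy, with filled points for endothelium-poor and open points for endothelium-rich libraries. Postn, Dcn and Gdf10 have their highest library on POD1. Cd5l and Jchain are spread within days, with 1 library of POD2 at 879 CPM for Cd5l. Cxcl2 is high in the 4 endothelium-poor libraries, at 4409 to 14160 CPM, and at 296 to 980 CPM in the others.

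Kupffer cell markers lay higher on POD4. Of 20 tested members, 14 were higher and 0 lower within both kinds of library, against 7.53% and 8.88% of all genes, and 10 were higher without overlap against 1.88%. Folr2, a folate receptor of resident macrophages, stood at 19.9, 14.4 and 16.6 CPM on POD1 and at 55.8, 75.4 and 46.0 CPM on POD4 (log2 1.80 ± 0.62, adjusted p = 0.687). Cd5l, a protein that resident macrophages secrete, stood at 252, 124 and 109 CPM on POD1 and at 379, 791 and 427 CPM on POD4 (log2 1.72 ± 0.69). Timd4, a receptor for phosphatidylserine on dying cells, stood at 26.4, 16.9 and 16.4 CPM against 32.7, 88.0 and 38.2 CPM. The lowest library of POD4 lay above the highest of POD1 for each of these.

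The complement genes C1qa, C1qb and C1qc, whose products form the starter of the classical pathway, were higher by 1.38 on the log2 scale each, with C1qa at 254, 116 and 112 CPM on POD1 and 372, 550 and 332 CPM on POD4. Clec4f, a lectin made by mouse Kupffer cells, stood at 358, 159 and 138 CPM on POD1 and at 388, 953 and 437 CPM on POD4. Vsig4, a complement receptor, Axl, a receptor for apoptotic cells, and Nr1h3, a sterol receptor, were also higher without overlap. Cd163 and Spic, which belong to the handling of haemoglobin and iron, were higher within each kind of library only, as were 2 other markers. The other 6, among them Csf1r, Cd68, Mrc1 and Mertk, had neither order. Markers of this list, whichever order they had, can also be expressed by other macrophages, and Mrc1 by sinusoidal endothelium. Without replicate 2 of POD4 the median of the list, as log2 of the ratio of mean levels, was 0.91 in place of 1.37, and 10 of 20 were still higher without overlap. The levels also varied within days: Cd5l stood at 879, 242 and 153 CPM in the 3 libraries of sham POD2. The summed level of the 20 markers was 2673, 2558 and 5317 CPM of the unscaled total on POD1 and 7520, 5726 and 3386 CPM on POD4.

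Other macrophage lists did not share this direction. Markers of peritoneal macrophages, with Timd4 also among them, had 11 negative differences of 15, with a median of -0.51. Those of monocytes had 9 positive and 9 negative. Single genes outside the Kupffer list, taken by low p-values, are given as values. Igf1, a growth factor of hepatocytes and macrophages, stood at 17.5, 10.8 and 10.03 CPM on POD1 and at 27.0, 64.4 and 25.2 CPM on POD4 (log2 1.61 ± 0.55). Ccl8, a chemokine for monocytes, stood at 2.02, 0.831 and 3.19 CPM against 30.1, 5.75 and 6.54 CPM (log2 2.79 ± 0.91). C4b, a complement component, stood at 44.5, 28.5 and 16.6 CPM against 52.6, 88.7 and 101 CPM (log2 1.43 ± 0.46). None of the 3 passed (adjusted p from 0.635 to 0.687). Clec10a, a lectin of macrophages and dendritic cells, was 4.83 CPM or less on POD1 and 5.26 to 23.3 CPM on POD4.

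Immunoglobulin transcripts lay higher in all 3 libraries of POD4. The summed level of immunoglobulin genes was 322, 274 and 248 CPM of the unscaled total on POD1 and 811, 3142 and 936 CPM on POD4. It was 182 to 497 CPM in sham POD2 and 348 to 521 CPM in sham POD3, so the POD4 libraries lay above all 9 other sham libraries. Jchain (chromosome 5, 88519809 to 88527891, minus strand), which joins IgA and IgM into polymers in plasma cells, stood at 22.5, 14.7 and 9.62 CPM on POD1 and at 40.2, 323 and 77.2 CPM on POD4 (log2 3.24 ± 0.80, adjusted p = 0.624 with edgeR, and 0.0288 with DESeq2). Igha, the constant region of IgA, stood at 138, 63.0 and 46.2 CPM against 214, 1769 and 413 CPM. Igkc, the kappa constant region, stood at 138, 86.0 and 39.8 CPM against 164, 1222 and 360 CPM.

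Of 13 tested plasma cell markers, 8 were higher within both kinds of library against 7.53% of all genes and 4 without overlap against 1.88%, including Irf4, a transcription factor of plasma cell fate, at 1.94 to 2.08 CPM on POD1 and 2.48 to 7.59 CPM on POD4. The highest value of Jchain, Igha, Igkc and Irf4 was in replicate 2 of POD4. Without that library 4 of 13 were separated, and the list's median log2 ratio of means was 0.58 in place of 1.05. Without replicate 1 of POD4, 8 were separated and this median was 1.33. Ighm, the IgM constant region, overlapped between the days at 38.0 to 96.9 CPM and 81.2 to 270 CPM, as did the B cell adaptor Bank1 at 5.72 to 11.2 CPM and 9.57 to 33.9 CPM. The part of plasma cells carried along with the beads in these differences was not tested.

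**Figure D5:**
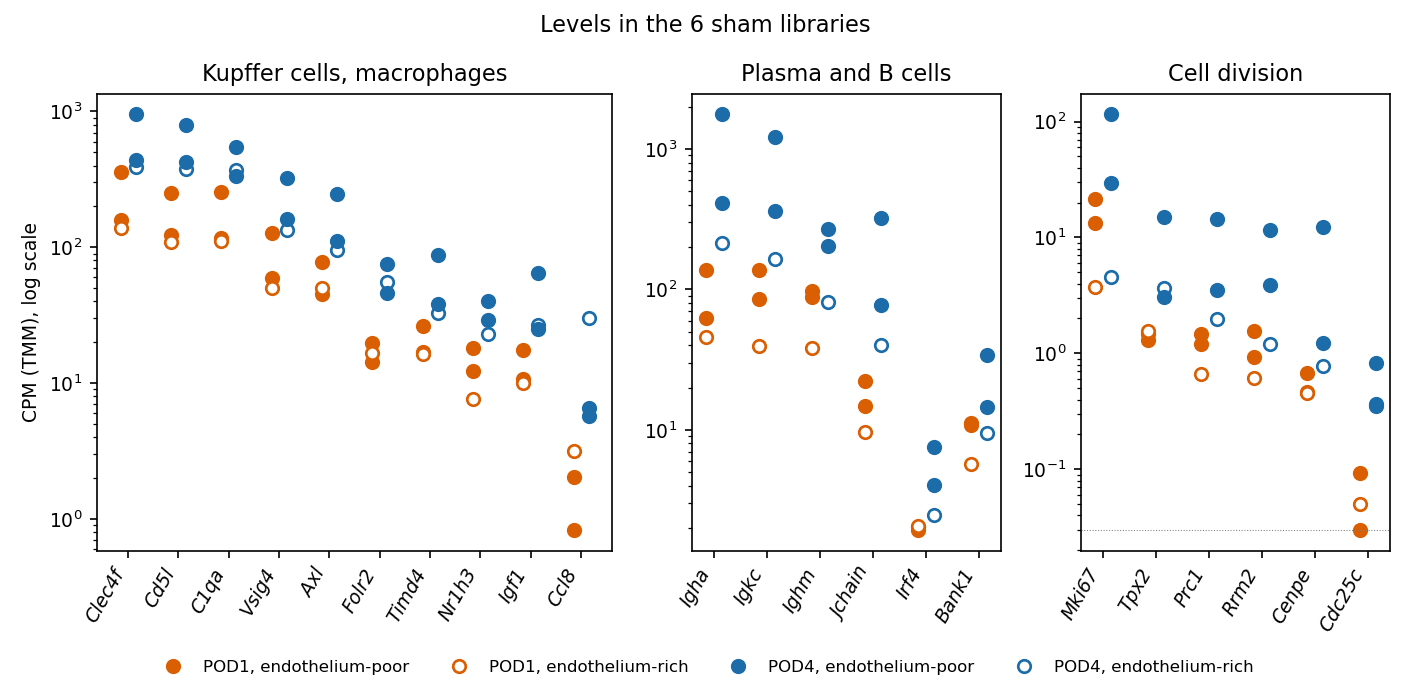
CPM on a log scale for 10 genes of Kupffer cells and macrophages, 6 of plasma and B cells and 6 of cell division in the 6 sham libraries, coloured by day, with open points for endothelium-rich libraries. Values under 0.03 CPM are drawn at 0.03. The blue points of POD4 lie above the orange points of POD1 for each macrophage gene, while the plasma cell and division genes are led by 1 library each, replicate 2 and replicate 3 of POD4.

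Genes of cell division lay higher on POD4, led by replicate 3. Of 46 tested genes of the G2 and M phases, 45 had a positive difference, and 28 of these had an unadjusted p under 0.05, against 2.54% of all genes. Within both kinds of library 25 were higher against 7.53%, and 9 were higher without overlap against 1.88%. Tpx2, a spindle assembly factor, stood at 1.46, 1.29 and 1.57 CPM on POD1 and at 3.69, 3.06 and 15.1 CPM on POD4 (log2 2.32 ± 0.63, adjusted p = 0.624). Prc1, which bundles microtubules at cell division, stood at 1.46, 1.20 and 0.658 CPM against 1.99, 3.55 and 14.5 CPM. Cenpe, a kinetochore motor, stood at 0.674, 0.462 and 0.456 CPM against 0.780, 1.22 and 12.4 CPM. The 9 became 20 without replicate 1 of POD1, 25 without replicate 1 and 15 without replicate 2 of POD4, and 16 with library size alone. Without replicate 3 of POD4 it was 9, and the median log2 ratio of means was 0.41 in place of 1.32. Mki67, the proliferation marker, overlapped at 21.4, 13.3 and 3.75 CPM on POD1 and 4.54, 29.2 and 116 CPM on POD4.

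Genes of DNA synthesis had a median log2 fold change of 0.34. Of 47 tested S phase genes, 14 were higher and 0 lower within both kinds of library, against 7.53% and 8.88% of all genes, and 3 were higher without overlap against 1.88%. Rrm2, a subunit of ribonucleotide reductase, overlapped at 0.608 to 1.57 CPM and 1.21 to 11.5 CPM, and Fen1, a flap endonuclease of DNA replication, did not overlap at 0.0923 to 0.506 CPM and 0.780 to 1.10 CPM.

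Granule genes of immature neutrophils had the same library at their top. Ltf, which encodes lactoferrin of the secondary granules, stood at 616, 305 and 49.2 CPM on POD1 and at 109, 984 and 8600 CPM on POD4. Camp, the cathelicidin precursor, stood at 178, 69.5 and 11.2 CPM against 47.1, 268 and 1183 CPM, and Ngp, another granule protein, at 2981, 571 and 99.3 CPM against 224, 2130 and 20080 CPM. Of 25 secondary and tertiary granule genes, 23 had a positive difference and 4 were higher within both kinds of library, against 7.53% of all genes, while 0 were separated without overlap, against 1.88%. The 4 became 18 without replicate 1 of POD1 and 17 without replicate 2 of POD4. Over all 14325 genes the same count went from 1079 to 2515 and 2383. The list's median was 0.78 in the fit. As a log2 ratio of means it was also 0.78, and it was -0.51 without replicate 3 of POD4. Fcnb, a ficolin of early neutrophils, and Cybb, a subunit of the NADPH oxidase, were led by the same library at 28.1 and 1219 CPM. The neutrophil score was highest there too, at 11.54. With that score as a covariate over 24 libraries the log2 difference was 1.40 for Ltf, 1.53 for Camp, 1.06 for Ngp, 1.79 for Fcnb and 0.82 for Cybb, and none of these passed (adjusted p from 0.0866 to 0.329). Ltf, Camp and Ngp are themselves markers of that score, so for them this fit is partly circular.

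Several chemokine and cytokine genes lay lower on POD4 within each kind of library, with overlap between the whole groups. Cxcl2 (chromosome 5, 90903871 to 90905938, plus strand), a chemokine that attracts neutrophils and that they also make, stood at 14160 and 10410 CPM in the poor POD1 libraries, against 6175 and 4409 CPM in the poor POD4 ones. In the rich libraries it stood at 608 and 296 CPM (log2 -1.84 ± 0.47, adjusted p = 0.0951 with the score held constant). Ccl3, a chemokine for monocytes and T cells, stood at 593, 1228 and 70.0 CPM on POD1 and at 67.8, 407 and 66.6 CPM on POD4. Ccl4, its close relative, stood at 304, 521 and 35.3 CPM against 26.0, 206 and 31.6 CPM. Il1rn, the interleukin-1 receptor antagonist, stood at 1001, 1734 and 94.2 CPM against 80.0, 871 and 253 CPM. Tnf stood at 638, 701 and 53.3 CPM against 30.3, 623 and 145 CPM. The rich library of POD4 was the lowest of the 6 for Cxcl2, Ccl4, Il1rn and Tnf.

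The whole list was spread more widely. Of 48 tested inflammatory genes, 7 were lower and 1 higher within both kinds of library, against 8.88% and 7.53% of all genes, 0 were separated, and the median was -0.34. Left without replicate 1 of POD1 or without replicate 1 of POD4, the median log2 ratio of means turned from -0.25 to 0.11 or 0.06, and without replicate 3 of POD1 10 of the 48 were lower without overlap. Ptgs2, the inducible cyclooxygenase, overlapped in the poor libraries at 1905 and 2905 CPM against 2312 and 372 CPM.

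Immediate-early genes, which are switched on within minutes by activation or by tissue digestion, had 24 negative differences of 34, with 8 lower and 0 higher within both kinds of library, against 8.88% and 7.53% of all genes. Their median log2 ratio of means was -0.24, and it was 0.07 without replicate 1 of POD1 and 0.03 without replicate 1 of POD4. The 8 became 18 without replicate 2 of POD4, while over all 14325 genes the same count went from 1272 to 2350. Egr1 stood at 4112, 6583 and 1439 CPM on POD1 and at 755, 2541 and 1367 CPM on POD4 (log2 -1.62 ± 0.40, adjusted p = 0.0918 with the score held constant). Dusp1, a phosphatase that ends MAP kinase signals, stood at 12730, 13200 and 2351 CPM against 2112, 7886 and 4184 CPM (log2 -1.18 ± 0.30, adjusted p = 0.0951 with the score held constant). Egr2 and Zfp36l1 were lower within both kinds of library too, with log2 differences of -1.70 and -1.07 with the score held constant. The part of handling time during digestion was not tested.

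The promoters of Cxcl2 and Dusp1 are shown as 2 genes that were lower on POD4 within each kind of library and whose windows hold one of the motifs searched. They were chosen after their values were seen. The windows run from 250 bases before to 50 after the RefSeq start in GRCm38.p6, 5′ to 3′ on the gene's strand, and capitals mark the motifs. Of the 5 motifs searched on both strands, Cxcl2 holds GGGANTTTC, an NF-kB motif, at position -97, which 1.11% of 32851 promoters of 300 bases hold. Dusp1 holds TGACGTCA, the cAMP response element, at -143, held by 1.79% of the promoters, and CACGTG, an E-box, at -126, held by 7.15%. The other motifs were GAAANNGAA, the core of the interferon-stimulated response element (8.56%), and TTANNTAA, the D-box (6%).
Cxcl2, chr5:90903649-90903948, plus strand: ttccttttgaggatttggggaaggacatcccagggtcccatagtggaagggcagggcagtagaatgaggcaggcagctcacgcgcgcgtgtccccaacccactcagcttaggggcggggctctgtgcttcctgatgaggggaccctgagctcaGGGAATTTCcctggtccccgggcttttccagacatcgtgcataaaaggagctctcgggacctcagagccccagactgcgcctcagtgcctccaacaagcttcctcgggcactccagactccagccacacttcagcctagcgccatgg
Dusp1, chr17:26508423-26508722, minus strand: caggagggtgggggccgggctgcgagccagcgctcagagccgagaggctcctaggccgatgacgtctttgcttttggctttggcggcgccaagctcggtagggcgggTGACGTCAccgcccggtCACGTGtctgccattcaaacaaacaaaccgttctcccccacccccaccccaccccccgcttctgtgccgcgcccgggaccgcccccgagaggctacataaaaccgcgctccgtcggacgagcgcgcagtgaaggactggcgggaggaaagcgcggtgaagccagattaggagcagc
A match of letters is a description and not a binding site. Of the other genes lower on POD4 within each kind of library, Tnf, Il1rn and Zfp36l1 have windows with none of the 5 motifs, as do Adamts2, Papss2, Gdf10, Lrat and Hand2. Others hold some: the interferon-stimulated core is in Postn, Ccl3, Edn1, Pik3ip1, Colec11 and Entpd3. The D-box is also in Postn, and the E-box is in Egr2, Reln and Entpd3.

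Vascular and regulatory genes with low p-values are given as values. Edn1, the vasoconstrictor endothelin-1, stood at 6.51, 8.12 and 2.74 CPM on POD1 and at 0.780, 2.20 and 2.26 CPM on POD4, without overlap. Thbs1, which encodes thrombospondin-1, stood at 357, 450 and 16.5 CPM against 4.40, 72.1 and 80.6 CPM. Havcr2, the checkpoint receptor TIM-3, stood at 10.1, 46.2 and 1.57 CPM against 1.21, 3.92 and 2.73 CPM. Nt5e, the ectoenzyme CD73 that makes adenosine, stood at 37.0, 109 and 5.22 CPM against 2.34, 10.4 and 29.0 CPM. Npas2, a clock transcription factor, was at or under 1.48 CPM throughout and lower on POD4 without overlap, and 1 of its POD4 libraries held 0 counts.

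A few genes with small spread were higher on POD4 in every library. Dpp3, a peptidase that cleaves short peptides, stood at 26.1, 24.6 and 29.3 CPM on POD1 and at 37.01, 35 and 51.7 CPM on POD4 (log2 0.63 ± 0.15, adjusted p = 0.624 with edgeR, and 0.0135 with DESeq2). Txnl1, a thioredoxin-like protein of the proteasome, stood at 27.9, 22.9 and 36.5 CPM against 38.9, 47.4 and 51.9 CPM. Vrk2, a kinase, stood at 10.4, 9.05 and 10.9 CPM against 12.8, 19.0 and 16.7 CPM. Nuclear genes of oxidative phosphorylation had 72 positive differences of 75, with a median of 0.29, and 24 were higher and 1 lower within both kinds of library, against 7.53% and 8.88% of all genes. The endothelium-rich pair, 1 library of each day, showed 71 of the 75 higher on POD4, against 7104 of all 14325 genes. Cox6c, a subunit of cytochrome c oxidase, stood at 22.9, 15.7 and 36.7 CPM against 61.1, 24.8 and 37.8 CPM. The 7 tested genes encoded in the mitochondrion all had negative differences, with a median of -0.24. Without replicate 1 of POD4 the nuclear list's median log2 ratio of means was 0.02 in place of 0.28, and without replicate 2 of POD4 it was 0.47.

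Genes that define suppressive or activated neutrophils overlapped between the days. Arg1, the arginase, stood at 75.0, 174 and 18.5 CPM on POD1 and at 10.4, 17.5 and 65.1 CPM on POD4 (log2 -1.53 ± 0.74). Il10, the anti-inflammatory cytokine, stood at 8.20, 1.20 and 1.06 CPM against 2.34, 21.2 and 13.6 CPM (log2 1.85 ± 0.77). Nos2, the inducible nitric oxide synthase, was high in 1 library of each day, at 109 CPM in replicate 1 of POD1 and 372 CPM in replicate 3 of POD4, and at 9.51 CPM or less in the others. Prok2, a secreted factor of neutrophils, was high in the same 2 libraries, at 440 and 1210 CPM. Lcn2, lipocalin-2, followed them at 8221 and 15570 CPM, and Ly6g, the surface marker used in the selection, at 318 and 1095 CPM. For Cd274, which encodes PD-L1, the difference was 0.01 ± 0.65, for Vegfa -0.01 ± 0.51, for Mmp9 0.04 ± 0.87, for Il1b -0.05 ± 0.83 and for Arg2 -0.17 ± 0.74 on the log2 scale. It was 0.29 ± 1.00 for S100a9, 0.35 ± 1.02 for S100a8 and 0.27 ± 0.84 for Itgam. The acute-phase gene Saa3 was at 9.004 to 122 CPM, Csf3 at 2.13 CPM or less, Il6 at 3.33 CPM or less and Hgf at 15.5 to 38.7 CPM over the 6 libraries.

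The change from POD1 to POD4 was set against that after hepatectomy in the same fit. Of 14325 genes, 4078 (28.5%) passed for this difference in edgeR, 2785 with a more positive change after hepatectomy and 1293 with a more negative one, around a median difference of 0.42 over all genes. With library size alone the split was 6492 against 292, around a median of 1.66. Postn, lower after sham by a log2 of -1.90, was 0.18 ± 0.31 after hepatectomy, and the difference of 2.08 ± 0.45 passed (adjusted p = 0.00495). Its hepatectomy libraries stood at 4.80 to 7.68 CPM on POD1 and 5.84 to 7.43 CPM on POD4. Dcn did not pass (0.28 ± 0.45, adjusted p = 0.64): after hepatectomy it stood at 133 to 204 CPM on POD1 and 75.5 to 81.5 CPM on POD4. Dpp3 and Txnl1 were higher on POD4 after sham and lower after hepatectomy, with differences of -1.14 ± 0.22 and -1.76 ± 0.31. These 4 genes were named for their sham change, which is part of the difference. The hepatectomy libraries of POD1 had endothelial scores of 3.36 to 4.21, below all sham libraries, so the composition moved with this difference and its part was not tested. With the score as a covariate the 4 differences had adjusted p of 0.011 for Postn, 0.742 for Dcn, 0.000884 for Dpp3 and 7.2e-05 for Txnl1.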

How the data were processed

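The deposited table holds raw read counts per gene symbol, which the authors made, per the submitters' processing notes, with cutadapt, STAR 2.4.2a, HTSeq and the GRCm38 genome. The annotation release and the strand setting are not given in the sources used here, so a gene and an antisense partner cannot be told apart. Counts were checked to be whole numbers. Scaling was by TMM and the low-count filter was filterByExpr, which kept 14325 of 46477 symbols. Groups were compared with edgeR 4.0.16 in R 4.3.3 by a two-sided quasi-likelihood F test in 1 fit of 24 libraries and 8 groups, with Benjamini-Hochberg adjustment at 0.05. Differences are log2 of POD4 over POD1 with an approximate standard error, and levels are CPM scaled with TMM unless called unscaled. Depth limits counting error only.

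A second fit added the endothelial score. Any fit with a score is circular for the genes that make up that score. Libraries were split at the widest gap of the score, 7.83 to 9.88, into 9 poor and 15 rich ones. Whether replicate numbers pair the samples could not be decided. Deviations of same-numbered libraries correlated at -0.866, 0.495 and -0.67, and those of the rich libraries, replicates 3 and 1, at 0.906. These correlations followed the endothelial class, whose rich library has another number on each day. DESeq2 1.42.0, limma 3.58.1, other scalings, filters, sets of libraries and covariates were tried. The model was run on simulated counts with known changes. Their recovery was required only at a spread smaller than that of these libraries (common biological coefficient of variation 0.478). It does not measure the power of this comparison.

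The comparison, the 46 gene lists and the naming rule were chosen with earlier results of these data known. The rule named genes past 0.05 without overlap and at 5 CPM or more (filled to 6 per direction by lowest p where fewer passed), genes past 0.05 with the score held constant and ordered alike in both kinds of library, and up to 4 members per list with the lowest p. It also named a fixed panel of 22 genes, mostly of neutrophils, suppression and inflammation, with Stab2 and Mki67 among them. Further members of the stellate, Kupffer and plasma cell lists and the low-level genes among the 14 called were named after their values were seen. Sequences are from RefSeq (GRCm38.p6), where 71 of the 102 named genes had a promoter window, and gene coordinates from GENCODE M21 (GRCm38).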

Additional observations from a re-analysis of the deposited data

Results flagged for a closer look

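The change from POD1 to POD4 differed between the operations, by the test of that difference in edgeR at an adjusted p of 0.05, for 39 of the 102 named genes, beside 28.5% of all genes. Values are the log2 change after hepatectomy minus that after sham. Many of the named genes were chosen by their sham change, which this difference subtracts. Their share and values are therefore not independent of that choice. The hepatectomy libraries of POD1 had endothelial scores of 3.36 to 4.21, below every sham library, and the part of composition was not tested beyond the fit with the score.

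Among genes of stellate cells and matrix the difference was 2.08 for Postn, 2.20 for Adamts2, 1.80 for Papss2, 3.62 for Tmem56, 4.20 for Colec10, 2.69 for Gdf10, 2.80 for Col14a1, 1.40 for Hand2, 2.06 for Pdgfrb, 2.34 for Lum, 1.69 for Reln, 1.83 for Des, 1.65 for Rgs5, 4.51 for Colec11, 2.86 for Pde3a and 1.89 for Sod3. With the score as a covariate Hand2, Reln, Rgs5 and Sod3 no longer passed, at adjusted p of 0.153, 0.166, 0.579 and 0.059.

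Among macrophage genes it was 2.53 for Folr2, 2.85 for Igf1 and 5.48 for Ccl8, and with the score only Igf1 of these passed (adjusted p = 0.0287). It was 3.09 for Tpx2, 4.72 for Npas2, 5.54 for Stab2 and 4.85 for Arg1. With the score Npas2 and Arg1 passed, at adjusted p of 0.0366 and 0.0033, and Tpx2 and Stab2 did not, at 0.329 and 0.747. Stab2 is a gene of the endothelium that the score measures, so for Stab2 this fit is not an independent check.

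Of 20 neutrophil markers 4 passed with a negative and 0 with a positive difference, and of 48 inflammatory genes 16 and 1. Of all 14325 genes, 1293 passed with a negative and 2785 with a positive difference. Among named genes of neutrophils, inflammation and vessels it was -5.14 for Camp, -5.10 for Ltf, -6.97 for Ngp, -4.63 for Cybb, -6.01 for Lcn2, -3.65 for Ccl3, -3.91 for Ccl4, -4.00 for Il1rn, -5.06 for Il10, -3.28 for Cd274, -4.68 for Saa3, -8.39 for Csf3, -4.36 for Thbs1 and -4.82 for Edn1. With the score Il10, Csf3 and Edn1 of these passed, at adjusted p of 0.0318, 0.0102 and 0.00681. Dpp3 and Txnl1 had -1.14 and -1.76. Groups of 3 libraries were not searched for outlying libraries.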

How the results depend on the processing

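Counts of calls moved with the fit. Over all genes, edgeR called 0 genes with TMM, and 0 with each other scaling, filter, set of libraries or replicate block tried, and with each library left out (0 to 0). DESeq2 called 18 genes, voom with quality weights 5, the endothelial score as a covariate 14, the endothelial class as a factor 1 and the neutrophil score as a covariate 4. With the endothelial score held constant the 14 became 0 with library size alone, 25 with the filter of 5 CPM in 3 libraries, 0 in the 12 sham libraries, 1 with class as a factor, and 0 to 572 with each library left out. The replicate block gave 0 calls over all genes in both fits, 11 with the score and 2739 for the difference between the operations, against 4078. Library size alone gave 6784 for that difference, 6492 more positive and 292 more negative, and moved the median of all genes from 0.42 to 1.66. Under library size alone 1 stellate cell marker of 21 was separated in place of 11. The directions of the 14 genes called with the score were the same in every fit with it.

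Several panel genes, Ngp and Vps45 changed sign under some alternatives, and not only those with small differences. Lcn2, at a log2 difference of 0.78 without a covariate, was -1.68 without replicate 3 of POD4. Ly6g, Nos2 and Prok2 also turned negative without that library. With the neutrophil score, circular for its own genes, the log2 difference was -0.23 for S100a8, -0.14 for S100a9, -0.59 for Lcn2 and -0.83 for Prok2. It was -0.63 for Nos2, -0.75 for Mmp9, -0.52 for Itgam, -0.33 for Cd274 and 0.31 for Stab2. With the endothelial score, circular for its own genes, it was -0.27 for Itgam, 0.085 for Stab2, -0.50 for Cd274 and -0.47 for Mmp9. With voom it was 0.13 for Il1b, 0.14 for Arg2, -0.34 for Nos2, -0.19 for Cd274, 0.56 for Csf3, 0.11 for Vegfa and -0.23 for Mmp9. With the replicate block in 24 libraries it was 0.39 for Stab2, 0.16 for Il1b, 0.17 for Arg2, 0.32 for Csf3 and 0.032 for Vegfa, and in 6 libraries 0.084 for Il1b, 0.27 for Arg2, -2.21 for Nos2, -0.087 for Cd274 and -0.21 for Mmp9. Il1b was 0.045 with class as a factor. Cd274 was -0.062 with library size alone, -0.03 with no filter or with class as a factor, and -0.005 in the 12 sham libraries. Vegfa was 0.016 in DESeq2, 0.014 with RLE factors, 0.031 in 6 libraries only and 0.20 in the endothelium-poor libraries only. With each library left out the difference ran from -0.86 to 0.62 for Arg2, -1.07 to 0.58 for Cd274, -1.41 to 1.304 for Csf3, -1.38 to 0.65 for Il1b, -0.60 to 0.79 for Itgam, -1.68 to 2.51 for Lcn2, -0.81 to 3.39 for Ly6g, -0.89 to 0.56 for Mmp9, -0.05 to 4.48 for Ngp, -5.17 to 4.58 for Nos2, -3.07 to 4.90 for Prok2, -0.73 to 1.70 for S100a8, -0.39 to 1.52 for S100a9, -3.01 to 1.58 for Stab2, -0.52 to 0.44 for Vegfa and -0.29 to 1.56 for Vps45. The cause was not tested.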
